A study of Bos taurus with 88 samples.

Results

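In whole blood of calves in the first week of life, a group of 150 genes had higher read levels at 48 and 72 h after birth than at birth, and by 168 h their mean levels lay close to those at birth again. The group was chosen by these time values themselves. Levels were read counts scaled to library size as CPM, with the 5 largest genes of each library left out of the total, on the scale log2(CPM + 1). Among the 10002 genes of mean CPM of at least 5, out of 24616 genes counted, a gene was kept if its mean over 22 calves differed by less than 0.5 between 0 h and 168 h and if its correlation with ENSBTAG00000014628 over the 88 libraries was below 0.5. The rule left out 9 further identifiers by name. The 7922 genes that remained were ordered by the smaller of the rise from 0 to 48 h and the fall from 72 to 168 h, and the first 150 were taken. The time values are therefore a description of the selection and were not tested. No difference between breeds was part of the rule, but the minimum mean CPM was taken over all calves, so that a gene low in beef calves could pass through its level in H calves. The mean over the beef libraries alone was under 5 CPM for 9 of the 150 members, and the counts of members that differed between H and beef calves are given with and without these 9.

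The study followed dairy and beef calves that received colostrum in different ways. Holstein (H) calves (n = 8) were separated from the dam and first fed colostrum of 5% of body weight by tube. They were fed more colostrum of the dam over the first days, and then moved to a group pen with milk replacer. The beef calves, progeny of Charolais × Limousin (CL, n = 7) or Limousin × Friesian (LF, n = 7) cows, stayed with the dam and suckled. The beef cows had been mated to Aberdeen Angus or Charolais sires in both groups, and the dairy and beef calves were born on different farms. Breed and farm therefore cannot be told apart in any difference between H and beef calves. After 0 h the feeding of the calf cannot be told apart from them either. Every calf was sampled at birth (0 h) and again at 48, 72 and 168 h, giving 4 libraries per calf and no untreated control. In H calves the 0 h sample came before the first feed. Beef births were watched by staff so that no calf suckled before this sample was taken. The age of the calf and the time since the first colostrum also cannot be told apart. In H calves the change of feed and pen fell between 72 and 168 h, and it cannot be told apart from age there.

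Calves are born with very little antibody of their own in the circulation, because antibodies do not cross the bovine placenta, and they take it up from colostrum through the gut wall on the first day of life. Blood leukocytes at birth are rich in neutrophils, the phagocytes that respond first to bacteria, and the balance moves toward lymphocytes over the following weeks, while red blood cell precursors become rarer. RNA of whole blood sums over all of these cells, so more cells of a type and more RNA per cell cannot be told apart here. The identifiers of the files could not be paired with gene symbols here, so the members are given by their rank in the order of the rule, no roles or sequences are stated, and the cell types behind them could not be checked against markers.

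The 88 libraries held between 10023822 and 39304404 reads assigned to genes. At the shallowest library, a count of 3, the floor used here, corresponds to 0.299 CPM. The share of reads that mapped to several places, which are not counted for any gene, ranged from 6.42% to 49.1%, and the 5 largest genes took 2.88% to 48.4% of gene reads. H calf 6 stood apart. In the order of age, its multimapping share was 41.0%, 49.1%, 45.7% and 12.7%, and its 5 largest genes took 36.3%, 45.6%, 48.4% and 7.31% of gene reads. The counts of members called for H against beef calves are given with and without this calf. LF calf 1 also stood apart at 0 h, in the shallowest library, with a multimapping share of 32.8%.

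Over the 150 members, the mean levels on the log2(CPM + 1) scale had medians of 4.34 at birth, 5.15 and 5.43 at 48 and 72 h, and 4.52 at 168 h. The difference from 0 to 48 h had a median of 0.70 log2 units and ranged from 0.49 to 1.62, and the difference between 72 and 168 h had a median of 0.82 and ranged from 0.49 to 2.17. The difference between 168 and 0 h, which the rule held below 0.5 in size, had a median of 0.11, with 97 members above 0 and 53 below. Over all 10002 genes of mean CPM of at least 5, held to no such limit, its median was 0.14. Of these genes 6712 were above 0 and 3290 below. Most members were still higher at 72 h than at 48 h. This held for 122 of 150, with a median step of 0.25. The rise and fall that the rule asked for left no member able to have its highest mean at 0 or 168 h. Over all 10002 genes of mean CPM of at least 5, the median step from 48 to 72 h was -0.03. Their median difference from 0 to 48 h was 0.00, and the distance of the members from it was set by the rule.

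The edge of the group was gradual. The last 3 members taken had scores of 0.491, 0.489 and 0.487, and the first 3 genes outside had 0.486, 0.486 and 0.479. In all, 246 genes that the rule did not leave out by name reached the score of the last member. Of these, 57 were turned away only because their level at 168 h lay 0.5 or more from that at birth, 4 only by the correlation limit, and 35 by both. Among the 57, 44 ended above and 13 below their birth level, and the highest score among them was 1.90, above that of any member.

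**Figure D1:**
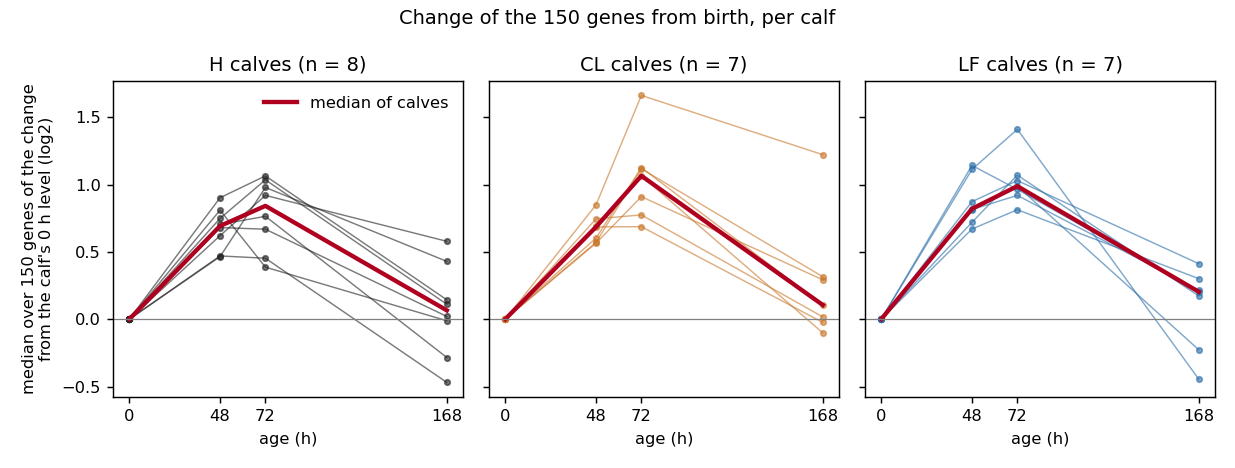
Median over the 150 members of the change from the calf's own level at 0 h (y axis, log2 units) against age (x axis, h), with 1 thin line per calf, 1 panel per breed and the median of the calves as the thick line. All 22 calves lie above 0 at 48 and 72 h, and at 168 h CL calf 1 stands at 1.22 while the other 6 CL calves lie between -0.10 and 0.31.

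Calf by calf, the median member was above its own birth level in all 22 calves at both middle ages. The median change to 48 h was 0.46 to 0.90 in the H calves (median of the calves 0.69), 0.56 to 0.85 in the CL calves (0.69) and 0.67 to 1.14 in the LF calves (0.82). The median change to 72 h was 0.39 to 1.06 in H (0.84), 0.69 to 1.66 in CL (1.06) and 0.81 to 1.41 in LF (0.99). The 3 breeds overlapped at both ages. At 168 h the calves spread on both sides of their birth level, from -0.47 to 0.58 in H, from -0.10 to 1.22 in CL and from -0.45 to 0.41 in LF. CL calf 1 had 149 of the 150 members above birth level at 168 h, against 70 as the lowest CL count.

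Single members were less uniform than the median. A member was higher at 48 h than at 0 h in 13 to 22 of the 22 calves, with a median of 20, and 25 members were higher in all 22. A member was lower at 168 h than at 72 h in 14 to 22 calves, again with a median of 20, and in all 22 for 30 members. Both held in every calf for 9 members. The return to the birth level, which the rule set on the mean of all calves, was looser within a breed. The mean at 168 h lay 0.5 or more from the mean at birth for 40 members in H, of which 30 were below, for 35 in CL, of which 34 were above, and for 12 in LF. These breed means rest on few calves. CL calf 1 had a median change of 1.22 at 168 h, against -0.10 to 0.31 in the other CL calves. In H calves the median change ran from -0.47 (calf 6) to 0.58 (calf 8). These counts were not made with single calves left out. The highest mean fell at 48 h for 19 members in CL, against 46 in H and 33 in LF, and at 72 h for all others.

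The first member in the order, ENSBTAG00000017574, had medians in H calves of 21.2 CPM at birth (10.1 to 40.3), 48.4 at 48 h (36.9 to 142), 50 at 72 h (33.6 to 122.8) and 11.4 at 168 h (6.91 to 23.2). In CL calves the medians in the same order were 17.99 CPM (6.62 to 40.9), 33.6 (28.99 to 125.5), 27.3 (15.1 to 68.7) and 10.2 (8.01 to 45.2). In LF calves they were 10.2 CPM (7.21 to 83.4), 67.1 (44.8 to 130), 68.1 (34.1 to 102.8) and 14.1 (9.17 to 18.4). The lowest LF value at 48 h thus lay above every LF value at 0 h but the highest, and in H the ranges at 72 and 168 h did not overlap. The gene was higher at 48 h than at birth in 21 of 22 calves and lower at 168 h than at 72 h in all 22. It was ranked first by this rise and fall, so these values describe the selection. Its counts ran from 70 to 3764 reads per library, far above the floor.

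The member at rank 5, ENSBTAG00000038748, took the most reads of all members and was among the 5 largest genes in 63 of the 88 libraries. Its median in H calves was 25254 CPM at birth (980 to 154298), 40345 at 48 h (2580 to 336852), 48995 at 72 h (3808 to 401459) and 12128 at 168 h (1145 to 175338). In CL calves the median was 4672 CPM at birth (2552 to 40042), 3755 at 48 h (2845 to 83231), 36363 at 72 h (4698 to 267710) and 9598 at 168 h (756 to 86910). In LF calves it was 7603 CPM at birth (913 to 23008), 27381 at 48 h (8576 to 40128), 34193 at 72 h (1428 to 114445) and 4974 at 168 h (737 to 25671). The CL median did not lie higher until 72 h, and the ranges of all 3 breeds overlapped at every age. Within every breed and age the highest calf lay several times above the lowest. It was higher at 48 h than at 0 h in 19 calves and lower at 168 h than at 72 h in 16.

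**Figure D2:**
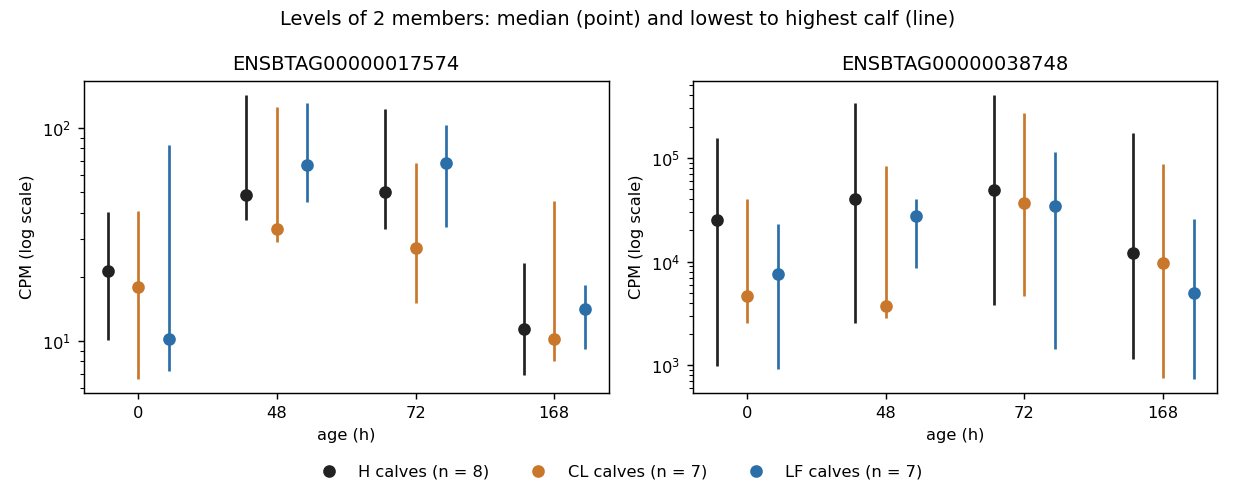
CPM on a log axis (y) against age in h (x) for ENSBTAG00000017574 at the left and ENSBTAG00000038748 at the right, with the median of the calves of a breed as the point and the lowest to the highest calf as the line. In the left panel the H medians of 48.4 and 50 CPM at 48 and 72 h stand above 21.2 at 0 h and 11.4 at 168 h, and in the right panel the lines of the breeds overlap at each age.

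The other members among the first 5 ranks showed the same span of behaviours. Rank 2 had mean levels of 6.65, 7.97, 8.53 and 6.51 at 0, 48, 72 and 168 h, and rank 3 had 2.64, 3.89, 4.16 and 2.19. Rank 4 had 5.83, 7.10, 7.09 and 5.84, so that its level at 168 h was 0.01 log2 units above that at birth. The ranks 2 and 3 varied widely between calves, with 16.4 to 160 CPM in H calves at 168 h and 97.3 to 2822 at 48 h for rank 2. Rank 4 was tighter, with 64.4 to 152 CPM in H calves at 0 h and 28.4 to 48.3 in LF calves.

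Members differed in which calves carried the highest levels. After the mean of each breed and age was taken away, the deviations of the members over the 88 libraries were clustered by correlation with average linkage into 3 sets of 48, 96 and 6 genes. The number of sets was chosen after the values were seen, and the sets carry no test. The median correlation between pairs of members was 0.60 within the set of 48, 0.36 within the set of 96 and 0.49 within the set of 6, against -0.07 between the 2 larger sets. Without H calf 6 these were 0.46, 0.36, 0.50 and 0.01. The sets were cut from these same correlations, so higher values within sets than between them follow from the clustering. As a description, a calf that was high in the set of 48 was not, as a rule, high in the set of 96.

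The set of 48 held the members at ranks 2, 3 and 5, and 9 of the first 20. Its mean level over genes had a median of 4.36 in H calves at birth (3.73 to 6.70), 5.03 at 48 h (4.16 to 7.91), 5.02 at 72 h (4.53 to 7.90) and 3.76 at 168 h (2.83 to 5.02). In CL calves the medians were 3.28 (3.17 to 4.81), 3.77 (3.20 to 5.53), 5.27 (3.79 to 6.48) and 3.34 (3.02 to 5.45), and in LF calves 3.47 (2.68 to 3.76), 4.41 (3.62 to 4.70), 4.57 (3.71 to 5.98) and 3.46 (2.95 to 4.13). At birth the H and LF ranges met only between 3.73 and 3.76, while CL calf 5 reached 4.81, and the highest value at 0, 48 and 72 h was that of H calf 6. The fall from 72 to 168 h was the larger part of the pattern in this set, with a median of 1.23 log2 units against a median rise of 0.67. Of its 48 genes 35 ended below their birth level, where 3290 of the 10002 genes of mean CPM of at least 5 did. In this set 43 of 48 genes were higher at 72 h than at 48 h.

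The set of 96 held the first member and was more even between calves. Its mean level had a median of 4.95 in H calves at birth (4.56 to 5.08), 5.69 at 48 h (5.22 to 5.83), 5.85 at 72 h (5.11 to 6.04) and 5.08 at 168 h (4.85 to 5.59). In CL calves the medians were 4.61 (4.30 to 5.05), 5.29 (5.16 to 5.72), 5.57 (5.25 to 6.29) and 4.86 (4.41 to 5.67). In LF calves they were 4.83 (4.44 to 5.33), 5.79 (5.32 to 6.04), 5.88 (5.45 to 6.37) and 4.91 (4.35 to 5.28). The ranges at 0 and 48 h did not overlap in H or in CL calves, and in LF calves they touched only between 5.32 and 5.33. The genes were chosen for this rise in the same calves, so the separation describes the selection. Rise and fall were of like size, with medians of 0.70 and 0.68. Of the 96 genes 82 ended above their birth level, where 6712 of the 10002 genes of mean CPM of at least 5 did. The set of 6, which held rank 4, had a median rise of 0.77 and a median fall of 0.87, and 2 of its genes were higher at 72 h than at 48 h.

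**Figure D3:**
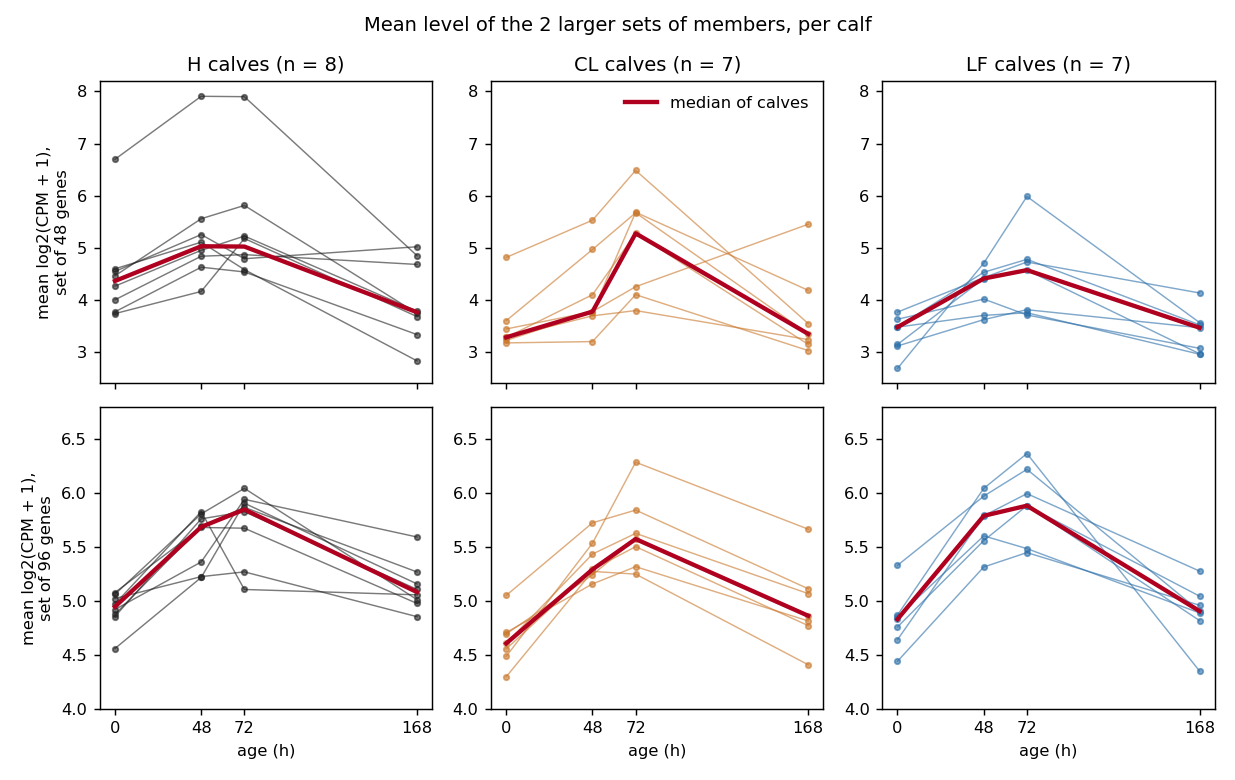
Mean log2(CPM + 1) over the genes of the set of 48 (top row) and the set of 96 (bottom row) against age in h, with 1 thin line per calf, the median of the calves as the thick line and 1 column per breed. H calf 6 stands above all others in the top left panel with 7.91 at 48 h and 7.90 at 72 h, while in the set of 96 it lies within the range of the other H calves at 0, 48 and 72 h and is the lowest H calf at 168 h with 4.85.

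Library-wide shares moved with the set of 48. Over the 88 libraries, after the mean of each breed and age was taken away, its mean level had a Pearson r of 0.80 (Spearman's rho 0.73) with the multimapping share and of 0.86 (rho 0.81) with the share of the 5 largest genes, of which the member at rank 5 is often 1. Leaving out the 2 libraries with the farthest shares gave 0.73 and 0.82, and leaving out H calf 6 gave 0.64 and 0.80. At the single ages, the r with the multimapping share was 0.65, 0.93, 0.87 and 0.84 in the order of age (22 libraries each), and rho was 0.42, 0.88, 0.77 and 0.82. The 0 h library of LF calf 1 went the other way, with a set level of 3.11 at a share of 32.8%, and without it r at 0 h was 0.89 (rho 0.68). The set of 96 had an r of -0.28 and -0.25 with the same shares, and it was -0.24 and -0.17 without H calf 6. At the single ages its r with the multimapping share was -0.04, -0.54, -0.50 and 0.19. The 4 libraries of a calf are not independent, so no p is given, and the part of these shares in the levels was not tested.

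The multimapping share itself differed between breeds. Its median was 11.8%, 16.8%, 17.4% and 9.62% in H calves at 0, 48, 72 and 168 h, against 9.42%, 8.90%, 10.9% and 8.98% in CL and 8.87%, 9.40%, 8.89% and 8.07% in LF. In H calves the medians at 48 and 72 h thus stood above those at 0 and 168 h, as the levels of the members do, while in LF calves they stayed between 8.07% and 9.40%.

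**Figure D4:**
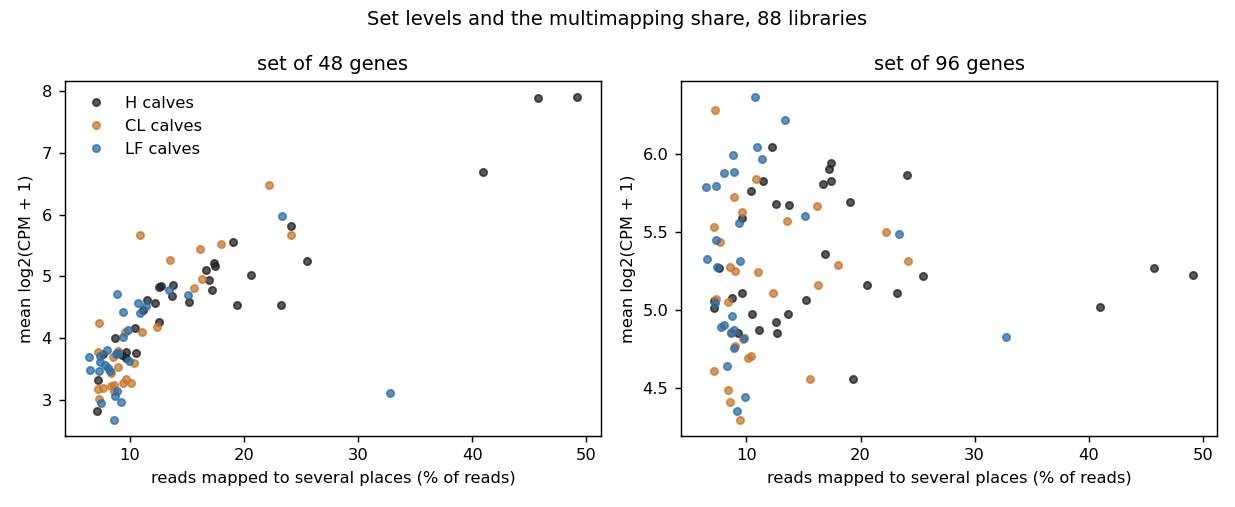
Mean log2(CPM + 1) of the set of 48 (left) and of the set of 96 (right) against the percent of reads that mapped to several places, with 1 point per library in the colour of its breed. The 3 libraries above 40%, all of H calf 6, hold the 3 highest levels in the left panel, and the right panel shows no such rise.

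Holstein calves were then compared with beef calves at each age, with the mean of CL and LF on the beef side, by edgeR's quasi-likelihood test on all genes that passed a low-count filter. A gene was called at a Benjamini-Hochberg adjusted p below 0.05 and a fold of at least 1.5. At birth, members were much more often higher in H calves than genes at large. Of the 149 members tested (1 did not pass the filter), 77 were called higher in H calves and 0 lower, where 12% of the 12995 genes tested were called higher and 6.03% lower. At an unadjusted p below 0.05 there were 95 members, where 49.8% of all genes tested were, in either direction. The median log2 difference of the tested members was 0.66, against -0.01 over all genes tested.

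Some of the members with the smallest adjusted p at birth were separated completely. Rank 99 lay at 162.7 to 276 CPM in H calves (median 212), at 81.2 to 113.2 in CL (87.9) and at 60.7 to 120.5 in LF (98.7), a log2 difference of 1.39 ± 0.14 (SE, adjusted p = 1.60e-06). Rank 4 lay at 64.4 to 152 CPM in H (88.6), 34.9 to 58.0 in CL (45.8) and 28.4 to 48.3 in LF (39.99), with a difference of 1.39 ± 0.14 (adjusted p = 1.60e-06). For both genes every H calf was above every beef calf. Rank 47 was higher by 1.20 ± 0.17 (adjusted p = 4.04e-05), with 4.92 to 9.18 CPM in H and up to 5.41 in LF, so that these ranges overlapped. The first member in the order was not called, with a difference of 0.48 ± 0.44 (adjusted p = 0.388), and rank 5 was called with 2.24 ± 0.67 (adjusted p = 0.0117).

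Both larger sets took part at birth. In the set of 48, 44 of the 47 tested members were called higher in H, with a median difference of 1.82. In the set of 96, 28 members were called higher, with a median of 0.35, and in the set of 6, 5 were. H calf 6 raised the H mean of the set of 48, and the same calf helped to form that set. Without this calf, 61 members were called higher and 1 lower at birth, where 9.80% of all genes tested were called higher, and the set of 48 still had 32 members called of 47, with a median of 0.89. In the set of 96 the count was 24 higher without it. Without the 9 members of low beef mean, 70 of 141 were called higher at birth, where 9.38% of the genes tested with a beef mean of at least 5 CPM were. The multimapping share at birth, higher in H calves as given above, moved with the set of 48, and its part in these calls was not tested.

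At 48 h, 55 of 150 members were called higher in H calves and 1 lower, where 9.51% of the 13060 genes tested were called higher and 3.4% lower. The median difference was 0.41, against -0.03 over all genes. Here the calls lay mostly in the set of 48, with 43 of its 48 members, against 10 called higher among the 96. Without H calf 6 the count fell to 28, all higher, of which 16 were in the set of 48, while 7.75% of all genes tested were called higher, and the median difference of the set of 48 fell from 1.87 to 0.78. Without the 9 members of low beef mean, 47 of 141 were called higher, where 7.45% of the genes tested that reach the beef minimum were. Among the 5 members with the smallest adjusted p, rank 55 had the largest difference. It lay at 6.00 to 439 CPM in H (median 24.1), 0.814 to 21.0 in CL (1.44) and 1.08 to 10.9 in LF (3.58), so the groups overlapped, and its log2 difference was 4.30 ± 0.80 (adjusted p = 0.000739). Its mean over the beef libraries of all ages was 5.22 CPM. The member called lower, ENSBTAG00000007147 at rank 116, lay at 2.22 to 6.28 CPM in H (4.401), 3.82 to 8.36 in CL (5.97) and 5.27 to 12 in LF (8.41), with -0.59 ± 0.20 (adjusted p = 0.0276).

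At 72 h the fewest members were called. Called higher in H were 17 of 150 members and called lower was 1, where 4.53% of the 12923 genes tested were called higher and 3.17% lower. The median difference was 0.31, against 0.04 over all genes. The set of 48 still had a median difference of 1.12, and 9 of its members were called. Without H calf 6 that median was 0.13 and the median of all members 0.17, and 7 members in all were called higher and 1 lower, with 3.02% of all genes called higher. Without the 9 members of low beef mean, 12 of 141 were called higher, where 4.37% of the genes tested that reach the beef minimum were. The member called lower with all calves, ENSBTAG00000004997 at rank 132, lay at 4.97 to 18.6 CPM in H (median 16.6), 12.3 to 38.8 in CL (26.9) and 17.8 to 45.6 in LF (26.4), with -0.74 ± 0.22 (adjusted p = 0.0249).

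At 168 h, 36 of 150 members were called higher in H calves and 1 lower, where 6.03% of the 13043 genes tested were called higher and 2.96% lower. The median difference was 0.40, against -0.03 over all genes. In the set of 96, 22 members were called higher, and in the set of 48, 10 were. The member with the smallest adjusted p lay at 117 to 304 CPM in H (median 183), 52.3 to 162 in CL (86.4) and 70.3 to 122 in LF (104.8), with a difference of 1.14 ± 0.20 (adjusted p = 0.000699). Without CL calf 1, whose members had stayed high, 54 members were called higher and 0 lower, where 7.57% of all genes tested were called higher, and the count in the set of 48 rose to 22 and that in the set of 96 to 28. Without H calf 6 there were 29, all higher, with 5.14% of all genes called higher. Without the 9 members of low beef mean, 31 of 141 were called higher, where 5.89% of the genes tested that reach the beef minimum were. Without the 9 libraries that carry an R in their label 19 members were called, all higher, with 4.31% of all genes called higher, and with the L number of the labels as a term 17, all higher, with 3.39%, so the count at this age is less firm than at birth.

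**Figure D5:**
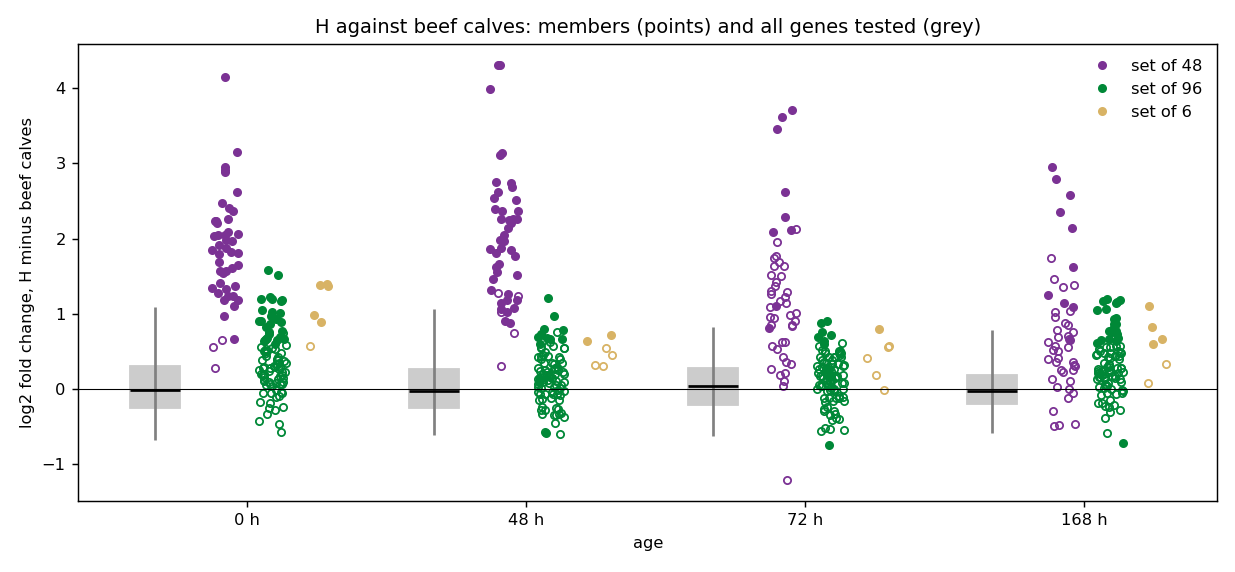
Log2 fold change of H minus beef calves (y) at each age (x), with 1 point per member, filled where called, beside all genes tested, whose box spans the quartiles, whose line spans the 5th to the 95th percentile and whose bar is the median. The medians of the set of 48 are 1.82, 1.87, 1.12 and 0.64 (without H calf 6 they are 0.89, 0.78, 0.13 and 0.53) and those of the set of 96 are 0.35, 0.15, 0.17 and 0.28, against -0.01, -0.03, 0.04 and -0.03 over all genes tested.

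Of the 149 members tested at all 4 ages, 86 were called higher in H at 1 age or more, 51 at both 0 and 48 h, 28 at both 0 and 168 h and 10 at all 4. Over the 12614 genes tested at all 4 ages the shares were 15.4%, 7.42%, 4.46% and 1.96% in this order. Of the 10, 6 were in the set of 48 and 3 in the set of 96. At birth only, 13 members were called, against 2.67% of these genes. The same calves were sampled at each age, so these counts are not independent of each other.

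The CL and LF calves were compared in the same way, and no gene was called at any age by edgeR (0% of 12744, 12838, 12681 and 12786 genes tested at 0, 48, 72 and 168 h, with all members tested but 2 at 0 h and 2 at 168 h). At an unadjusted p below 0.05 there were 16, 59, 17 and 9 members in the order of age. Over all genes tested the shares were 10.0%, 22.7%, 4.44% and 1.90%. DESeq2 called 0, 32, 0 and 0 members. The 48 h comparison was the one on the edge. Its median member difference was -0.29, against 0.01 over all genes, and in the set of 96 it was -0.49, with 9 of 96 members above 0. All 32 members that DESeq2 called were lower in CL calves, 31 of them in the set of 96, where it called 4.35% of all genes tested in either direction. Without LF calf 5, edgeR called 43 members, all lower in CL and 41 of them in the set of 96, where 7.49% of all genes tested were called in either direction.

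The member closest to a call at 48 h, at rank 27, lay at 4.33 to 7.73 CPM in CL calves (median 5.36) and at 7.64 to 18.5 in LF calves (13.1), a log2 difference of -1.26 ± 0.21 (adjusted p = 0.0822). The 2 groups met only between 7.64 and 7.73 CPM. At 0, 72 and 168 h the median member differences were -0.10, -0.18 and 0.17. At 0 and 168 h the sign rested on single calves. Leaving out 1 calf gave -0.20 to 0.03 at 0 h (0.03 without LF calf 6) and -0.02 to 0.25 at 168 h (-0.02 without CL calf 1). At 72 h the value stayed below 0 but moved, with -0.32 to -0.07 (-0.32 without CL calf 1 and -0.07 without LF calf 4). In the set of 48 the median was above 0 at each age, with 0.35, 0.10, 0.84 and 0.65, but at 72 h only 6 of these members had an unadjusted p below 0.05, and without CL calf 1 the value at 168 h was 0.03.

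Whether the size of the rise or fall differed between breeds was tested as the difference in change, an interaction of breed and age. By edgeR no gene was called in any of these 4 comparisons (0% of 13494 genes tested for H minus beef from 0 to 48 h, of 13356 from 72 to 168 h, of 13339 for CL minus LF from 0 to 48 h and of 13204 from 72 to 168 h), and all 150 members were tested in each. At an unadjusted p below 0.05 there were 10, 9, 18 and 1 of the 150 members in this order. Over all genes tested the shares were 3.54%, 13.1%, 13.7% and 1.54%. DESeq2 called 1, 0, 0 and 0 members. The median difference in change was -0.17, 0.05, -0.27 and 0.36 log2 units. Leaving out 1 calf gave -0.22 to -0.12 for the first, -0.02 to 0.29 for the second, -0.33 to -0.23 for the third and 0.18 to 0.47 for the last. The second was 0.29 without H calf 6, when that of the set of 48 went from -0.33 to 0.48, and -0.02 without LF calf 4, and the last was 0.18 without LF calf 4. The first value stands for a smaller rise in H than in beef calves. Of the 150 members 42 were above 0, where 45.85% of all genes tested were. No member was called by edgeR in this fit, which did not pair the libraries of a calf. For rank 4, which was higher in H at birth, the difference in change from 0 to 48 h was -1.09 ± 0.26 (adjusted p = 0.242). For ENSBTAG00000007147 it was -1.14 ± 0.27 (adjusted p = 0.242). With the calf as a block, which the shared animals allow, that gene was called, with -1.19 (adjusted p = 0.00679), as it was by DESeq2 (-1.14, adjusted p = 0.0450).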

How the data were processed

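Single-end RNAseq libraries from whole blood of 22 calves at 4 ages (88 libraries) were used, 1 per calf and age, grouped by the breed and age in the labels and tied to a calf by its tag number. The authors trimmed reads with cutadapt, checked them with FastQC, aligned them with STAR to UMD3.1 and counted reads per Ensembl gene; versions are not given in the sources used here. The deposited values are raw counts; the column that disregards strand was used, so reads of overlapping genes on opposite strands cannot be told apart, and reads that map to several places are counted for no gene. The 4 rows that name no gene were left out of totals. No file given here pairs the identifiers with symbols (0 matched), so the marker, pathway and motif lists were not applied, and the rule for named genes came down to the first ranks, the smallest adjusted p in each comparison and the genes at the edges. The members and lists were chosen with earlier results of these data known.

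Tests used edgeR 4.0.16 in R 4.3.3 (TMM, filterByExpr, robust quasi-likelihood fit) on the libraries of the ages compared, with DESeq2 1.42.0 as an alternative, after both were tested on simulated data. Standard errors are the log2 difference divided by the root of the quasi-likelihood F. Descriptions used Python 3.11.15, numpy 2.4.6, scipy 1.17.1 and pandas 2.3.3. Alternatives changed the scaling, filter and thresholds or added the labels' L number as a term. Others left out the libraries labelled R or each calf in turn. Counting only members with a mean of at least 5 CPM over the beef libraries alone was an alternative chosen after seeing the data. The meaning of the labels' L numbers (16) and R is not stated. Same-calf deviations correlated at 0.51, 0.47 and 0.41 between 0 and 48 h in H, CL and LF and at 0.22, 0.22 and 0.29 between 72 and 168 h, against -0.08 to -0.03 between different calves, so the calf was used as the replicate block in the alternative for the changes. No 2 libraries of a group agreed within sampling noise (0 of 280 pairs). The standard errors include the spread between calves of a group, while the floors cover counting error only.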

Additional observations from a re-analysis of the deposited data

Results flagged for a closer look

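Of 57 groups of 7 or 8 calves examined, 8 held 1 calf far from the others by Dixon's gap test at its 95% level, where chance gives about 1 in 20. In the mean level of the set of 48, H calf 6 lay at 6.70 at 0 h (the others 3.73 to 4.59), at 7.91 at 48 h (4.16 to 5.56) and at 7.90 at 72 h (4.53 to 5.81), and CL calf 5 lay at 4.81 at 0 h (3.17 to 3.596). In the set of 96, H calf 8 lay low at 0 h, at 4.56 (4.86 to 5.08). In the median change from birth, CL calf 1 lay at 1.22 at 168 h (-0.10 to 0.31) and LF calf 4 at 1.41 at 72 h (0.81 to 1.07). The log2(CPM + 1) level of ENSBTAG00000017574 at 168 h was 5.53 in CL calf 1 (3.17 to 3.96). H calf 6 and CL calf 1 account for 5 of the 8.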

How the results depend on the processing

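Of the 150 genes, 57.3% were found again with a tighter correlation limit of 0.3, 97.3% with no such limit and 54% with a tighter limit of 0.25 on the difference between 168 and 0 h, against 70.7% to 98.7% under the other settings and 90% to 96% when 1 calf was left out. The counts of members called for H against beef calves moved by over 1.5 times at 72 h, from 18 to 10 without the low-count filter and to 30 with all 88 libraries in 1 fit, and at 168 h, from 37 to 17 with the L number as a term and to 19 without the libraries labelled R. Leaving out 1 calf gave 62 to 86 at 0 h, 28 to 61 at 48 h, 8 to 21 at 72 h and 27 to 54 at 168 h. The lowest at 48 and 72 h came without H calf 6, and at 72 h the count was 11 without CL calf 4, 6 or 7 or LF calf 2 or 3. For CL against LF calves at 48 h, 32 members were called by DESeq2, 17 with all 88 libraries in 1 fit, 7 with the L number added and 0 to 43 without 1 calf, with 43 without LF calf 5. At 0, 72 and 168 h, and for each change, leaving out 1 calf gave 0 to 0. In the change from 0 to 48 h of H against beef calves, DESeq2 called 1 member, and so did the replicate block, with 1 in place of 0. The replicate block changed no other call among the members, and it called 1 gene outside them in the change from 0 to 48 h of CL against LF calves. The cause of these moves was not tested. Of the settings other than leaving out a calf, those for 0 h and 48 h of H against beef calves stayed within 1.5 times.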
